A study of Mus musculus with 8 samples.

Results

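The genes described here are 10 members of the thioredoxin and antioxidant systems, chosen by symbol: Txnip, Txn1, Txn2, Txnrd1, Prdx1, Prdx2, Gpx1, Gpx4, Sod1 and Sod2. All 10 were found among the 21553 genes with a value in the deposited tables. They were measured in whole mouse embryos from B6CBA F1 crosses, all of them injected with an mRNA at the 1-cell stage. The injected mRNA was Snrpb, Snrpd2, both of these, or mCherry, a red fluorescent protein that served as the control. The 2 injected genes code for Sm proteins, part of the core of the spliceosomal ribonucleoproteins. At the 2-cell stage, 24 h after injection, 4 libraries were made, 1 for each injection. At the 1-cell stage, 5 h after injection, another 4 were made in the same way. Each library held the RNA of 40 embryos pooled from 3 experiments, so no combination of stage and injection had a replicate, and the spread between embryos or experiments was not measured. The SDs below run over the 4 differently injected libraries of a stage. The p-values of the stage change rest instead on how that change varied between injections, with differences common to both stages taken out. Those of the injection comparisons rest on the spread between the differently injected Sm libraries of a stage. Embryos were pooled whole, with 1 cell each at the 1-cell stage and 2 at the 2-cell stage. PolyA RNA was measured, so the amount of a transcript and the share of it that carries a poly(A) tail cannot be told apart. All values are relative to the reads of a library, so rises and falls below are relative too. The amount of a transcript per embryo or per cell was not measured.

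Cells remove hydrogen peroxide and lipid peroxides along a pair of routes that both draw on NADPH. In the thioredoxin route, thioredoxin reductase reduces thioredoxin, which in turn reduces peroxiredoxins. In the glutathione route, glutathione peroxidases spend glutathione, and superoxide dismutases feed both routes by turning superoxide into hydrogen peroxide. Txnip encodes the thioredoxin-interacting protein, an alpha-arrestin that binds reduced thioredoxin and also limits glucose uptake. Thioredoxin reductases and several glutathione peroxidases contain selenocysteine, an amino acid that needs its own synthesis and insertion factors. The mouse embryo starts with RNA and protein stored in the egg and switches on most of its own genes at the 2-cell stage, while much of the stored RNA is cleared.

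Promoter windows of the 10 genes were read from RefSeq (GRCm38.p6), each from 250 bases before to 50 bases after a gene's start. They were searched on both strands for TGACNNNGC, the core of the antioxidant response element through which NRF2 acts, and for CACGTG, the symmetric E-box. The carbohydrate response element of Txnip itself is a pair of E-box-like CACGAG half-sites on 1 strand, searched with any 5 bases between them. The antioxidant core was present in windows of 3 of the 10 genes, Txnrd1, Prdx1 and Sod1, and in 14.0% of all 27025 genes with a window (12.4% of 32851 windows). CACGTG was present in windows of 0 of the 10 genes and of 8.1% of all genes (7.2% of windows). The pair of CACGAG half-sites was present in the window of Txnip and in no other of the 27025 genes. That motif was written after the element of Txnip and added once its window had been read, so the match describes where the element lies and is no finding. A match describes the letters of a window only. The 3 windows with the antioxidant core are shown because all 3 genes were lower at the 2-cell stage, and those of Txnip and Gpx1 because these genes had the largest fall and the largest rise of the 10. Txnip and Txn1 were lower as well, without the antioxidant core in their windows. The files use build mm9, so these coordinates place the sequence in GRCm38.p6 and nothing else. All 5 lie on the + strand and are printed 5′ to 3′. Capitals in Txnip mark the pair of half-sites, which starts 85 bases before the gene's start on the same strand. In Txnrd1, Prdx1 and Sod1 they mark the antioxidant core, which in each case lies on the strand opposite the gene and so appears here as its reverse complement, starting 92 bases before the start in Txnrd1, 133 in Prdx1 and 56 in Sod1.
Txnip, chr3:96557707-96558006: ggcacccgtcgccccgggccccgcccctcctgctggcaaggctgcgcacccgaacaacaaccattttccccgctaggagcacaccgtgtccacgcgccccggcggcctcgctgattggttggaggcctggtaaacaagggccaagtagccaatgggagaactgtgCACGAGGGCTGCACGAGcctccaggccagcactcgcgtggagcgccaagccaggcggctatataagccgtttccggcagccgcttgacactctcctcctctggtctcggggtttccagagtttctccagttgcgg
Txnrd1, the second of its 3 windows, chr10:82858956-82859255: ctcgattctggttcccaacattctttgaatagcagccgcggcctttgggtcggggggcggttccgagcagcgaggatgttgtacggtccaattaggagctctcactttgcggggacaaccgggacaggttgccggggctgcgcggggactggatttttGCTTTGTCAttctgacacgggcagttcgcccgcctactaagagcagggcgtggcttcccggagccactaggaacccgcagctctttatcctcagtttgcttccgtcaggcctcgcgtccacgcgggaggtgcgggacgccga
Prdx1, chr4:116685349-116685648: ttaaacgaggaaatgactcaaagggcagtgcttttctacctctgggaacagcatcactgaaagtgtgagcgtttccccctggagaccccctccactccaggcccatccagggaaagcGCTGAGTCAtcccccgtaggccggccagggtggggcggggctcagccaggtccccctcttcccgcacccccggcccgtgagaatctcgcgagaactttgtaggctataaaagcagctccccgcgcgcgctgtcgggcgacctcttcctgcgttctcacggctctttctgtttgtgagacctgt
Sod1, chr16:90220512-90220811: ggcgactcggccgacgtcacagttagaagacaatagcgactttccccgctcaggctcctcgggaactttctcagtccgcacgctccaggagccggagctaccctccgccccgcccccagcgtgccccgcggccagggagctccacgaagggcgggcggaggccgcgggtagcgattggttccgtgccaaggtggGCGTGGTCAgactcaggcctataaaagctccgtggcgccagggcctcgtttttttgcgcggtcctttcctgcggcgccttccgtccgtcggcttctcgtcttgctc
Gpx1, chr9:108338830-108339129: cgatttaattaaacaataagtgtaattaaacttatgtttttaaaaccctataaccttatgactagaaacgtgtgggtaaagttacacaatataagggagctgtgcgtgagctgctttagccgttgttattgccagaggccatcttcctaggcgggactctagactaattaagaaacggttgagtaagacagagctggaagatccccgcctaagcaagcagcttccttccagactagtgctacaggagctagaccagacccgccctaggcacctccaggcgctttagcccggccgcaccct

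Depth was 39492734 to 44648717 counted reads per library at the 2-cell stage and 49461122 to 59979046 at the 1-cell stage, and every one of the 10 genes had at least 237 reads in every library. The embryo labels were checked with markers. The 10 oocyte and zygote markers summed to 4291 to 5106 cRPKM in 2-cell libraries and 7064 to 7958 cRPKM in 1-cell libraries. Here cRPKM is the deposited RPKM value, in which reads are scaled to library total and to a fixed length for each gene. In the same order, the 8 of 10 listed markers of the 2-cell stage that were found summed to 2429 to 4298 cRPKM against 68.5 to 185 cRPKM. The 20 cumulus and granulosa cell markers summed to 26.0 to 37.0 cRPKM at the 2-cell stage and 26.3 to 52.6 cRPKM at the 1-cell stage, with Ereg at 0 throughout. The 10 blood and fibroblast markers summed to 45.5 to 59.8 cRPKM and 2.30 to 4.70 cRPKM, with Hbb-bs and Hbb-bt at 0. The 10 sperm markers summed to 3.38 to 5.66 cRPKM and 3.44 to 4.61 cRPKM, with Smcp at 0. In the stage test described below, 38.1% of all genes tested were higher and 32.0% lower at the 2-cell stage. Of 10 oocyte and zygote markers tested, 0 were higher and 9 lower, and of 8 markers of the 2-cell stage, 7 and 1. Of 19 cumulus and granulosa markers 6 were higher and 4 lower, of 4 blood and fibroblast markers 3 and 0, and of 4 sperm markers 1 and 0. The part of other cells in the results was not tested. The 1-cell mCherry library stood slightly apart within its stage, with a correlation of 0.984 to 0.985 to the other 1-cell libraries, which had 0.987 to 0.988 among themselves. Correlations among the 2-cell libraries were lower than all of these, at 0.980 to 0.983. Reads of the injected Snrpb and Snrpd2 took up to 4.88% of a 1-cell library and up to 0.22% of a 2-cell library.

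The members split between the stages, with 8 of the 10 changed. Gpx1, Gpx4 and Prdx2 rose in 2-cell embryos and Txnip, Txnrd1, Prdx1, Sod1 and Txn1 fell, while Txn2 and Sod2 did not pass (edgeR quasi-likelihood test on the counts, adjusted p under 0.05 over all 16264 genes tested). The background was high, since 38.1% of all genes tested were called higher and 32.0% lower at the 2-cell stage. The counts of 3 higher and 5 lower are therefore no result about the 10 genes as a group, and the sizes of the changes carry the description. Their log2 changes ran between −4.87 for Txnip and 3.53 for Gpx1, with a median of −0.19 against 0.15 for all genes tested. In cRPKM, 5 genes (Txn2, Prdx2, Gpx1, Gpx4 and Sod2) had all 4 of the 2-cell values above all 4 of the 1-cell values, as did 42.8% of all genes tested. A further 4 (Txnip, Txnrd1, Prdx1 and Sod1) had all of them below, as did 24.8% of all genes. Only Txn1 overlapped between the stages. Scaling set part of this. With library totals in place of the TMM factors the median of all genes was 0.41, and 5 of the 10 genes were called higher, Txn2 and Sod2 among them.

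**Figure D1:**
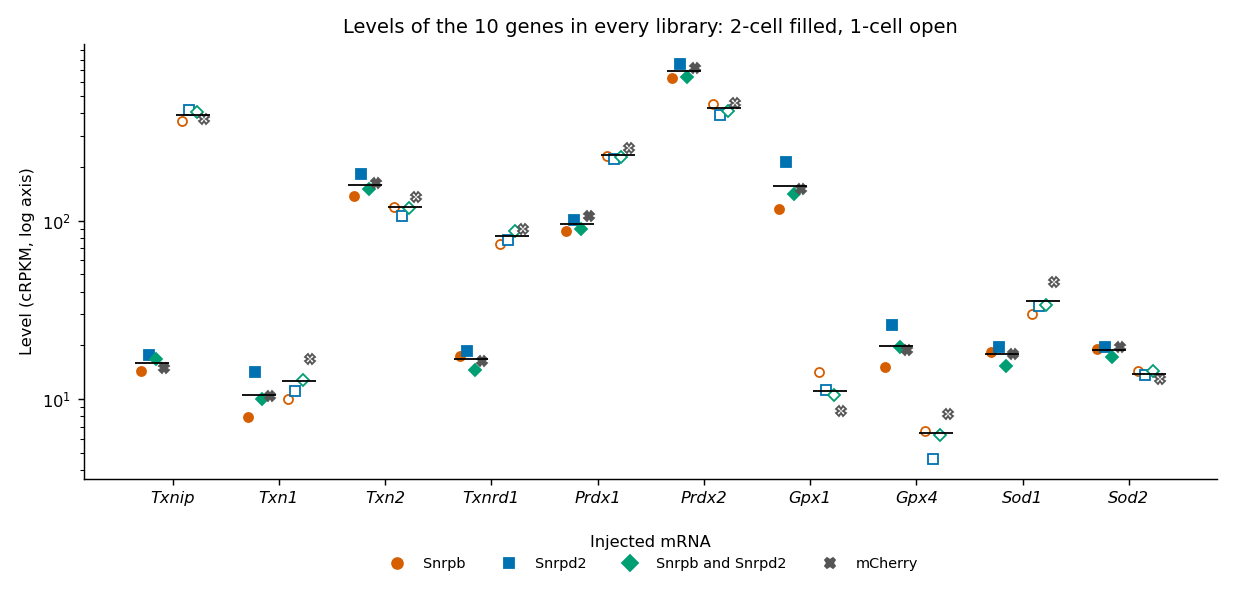
Level of each of the 10 genes in the 8 libraries, in cRPKM on a log axis; filled symbols are 2-cell libraries, open symbols 1-cell libraries, the symbol shows the injected mRNA and the short bar is the mean of the 4 libraries of a stage. Txnip stands at 14.4 to 17.7 cRPKM in 2-cell and 363 to 415 cRPKM in 1-cell libraries, and Gpx1 at 117 to 214 cRPKM in 2-cell and 8.61 to 14.2 cRPKM in 1-cell libraries.

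Txnip (ENSMUSG00000038393) had by far the steepest fall of the 10. It stood at 14.4 cRPKM after Snrpb, 17.7 after Snrpd2, 16.8 after both and 15.0 after mCherry in 2-cell embryos, against 363, 415, 407 and 372 cRPKM after the same injections in 1-cell embryos. The stages were far apart, and within a stage the libraries lay close together. The means were 16.0 ± 1.55 and 389 ± 25.3 cRPKM (SD, n = 4 each). Txnip fell by 4.87 on the log2 scale (SE 0.12, edgeR adjusted p = 1.23e-08), a 29.2-fold fall on TMM-scaled counts and 24.4-fold on mean cRPKM. Of the 16264 genes tested, 4 had a lower log2 change. The fall was near the same size in each injection, between 28.0-fold (95% counting interval 26.8 to 29.4) after both mRNAs and 31.3-fold (29.8 to 32.9) after Snrpb. By mean level, Txnip stood above 76.4% of the genes tested at the 2-cell stage and above 99.2% at the 1-cell stage. An antisense gene, Gm15441, overlaps Txnip in the annotation and was not analysed here. Whether the counting used strand is not known here, so reads of the 2 cannot be told apart.

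Genes with the pattern most like that of Txnip were looked for among 11178 genes with a mean of at least 100 reads. Likeness was the root-mean-square difference of log2(cRPKM + 0.1) over the 8 libraries after each gene was centred on its own mean. The 5 nearest were Nup93, a nuclear pore scaffold gene (0.14), Bub1b, a spindle checkpoint gene (0.15), Pabpn1l, a poly(A)-binding protein gene of the oocyte (0.26), Nup107, also of the nuclear pore (0.29), and Ercc5, an excision repair nuclease gene (0.32). Their log2 stage changes lay between −4.96 for Bub1b and −4.36 for Nup107, a likeness to Txnip that follows from how they were chosen. Of the 5, Nup93 came nearest to Txnip in level, with 9.76 ± 1.10 cRPKM in 2-cell and 207 ± 10.1 cRPKM in 1-cell embryos (SD, n = 4 each). None of the 5 belongs to the redox lists.

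The other alpha-arrestins did not all follow Txnip. Of the 5 family members listed here, Arrdc2 and Arrdc1 fell as well, whereas Arrdc3 and Arrdc4 rose. Arrdc2 had 4.51 ± 0.396 cRPKM in 2-cell and 43.1 ± 9.06 cRPKM in 1-cell embryos (SD, n = 4 each, log2 −3.50, SE 0.15, edgeR adjusted p = 3.17e-08). Arrdc3, an adaptor of ubiquitin ligases at membrane receptors, had 9.36 ± 0.667 and 1.75 ± 0.506 cRPKM (log2 2.2, SE 0.17, adjusted p = 1.37e-06). Arrdc4, the closest relative of Txnip in the control of glucose uptake, had 1.75 ± 0.275 and 0.18 ± 0.0516 cRPKM (log2 3.04, SE 0.28, adjusted p = 5.84e-06). Arrdc1, named after its values were seen, held 50% to 55.1% of the summed cRPKM of these 5 in 2-cell libraries and 22.4% to 30.8% in 1-cell libraries. Txnip held 22.9% to 25.7% and 62.7% to 70.8%, so the leading transcript of the 5 listed alpha-arrestins differed between the stages. The factors that bind the carbohydrate response element moved apart. Mlx, the shared partner, fell to 6.11 ± 0.412 cRPKM in 2-cell embryos, against 17.8 ± 1.22 cRPKM in 1-cell embryos (adjusted p = 1.10e-06). Mlxipl, which encodes ChREBP, had 10.6 ± 0.910 and 17.1 ± 2.93 cRPKM (adjusted p = 1.78e-04), and Mlxip, which encodes MondoA, rose 1.26-fold (adjusted p = 0.0266), a call lost without a filter on low counts and in 6 of the 8 fits that each left out 1 library. These 8 fits come in pairs of near-equal estimates, since leaving out either library of an injection takes that injection out of the stage change.

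Between the thioredoxins, the mitochondrial Txn2 was the main transcript at both stages, with 92.7% to 94.5% of their summed cRPKM in 2-cell and 89.0% to 92.3% in 1-cell libraries. Txn2 (ENSMUSG00000005354) had 137 cRPKM after Snrpb, 182 after Snrpd2, 150 after both and 162 after mCherry in 2-cell embryos, against 120, 106, 118 and 136 cRPKM in 1-cell embryos. Every 2-cell value lay above every 1-cell value, by the narrow gap between 137 and 136 cRPKM. Its log2 change was 0.13 (SE 0.12, edgeR adjusted p = 0.348), called higher with library totals (log2 0.39) and at −0.02 without either Snrpd2 library. Txn1 (ENSMUSG00000028367), the thioredoxin of the cytosol and nucleus, had 7.95, 14.2, 10.01 and 10.4 cRPKM in 2-cell embryos, in the same order of injections, and 10, 11.2, 12.8 and 16.8 cRPKM in 1-cell embryos. The stages overlapped. Txn1 was called lower (log2 −0.52, SE 0.18, adjusted p = 0.0232), but not with library totals (log2 −0.26, adjusted p = 0.242), nor in limma on cRPKM. Leaving out either library of Snrpb, of both mRNAs or of mCherry, which takes that injection out of the stage change, also lost the call. Txn1 had the lowest level of the 10 genes in all 4 of the 2-cell libraries.

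Txnrd1 (ENSMUSG00000020250), the NADPH-dependent selenoprotein that reduces thioredoxin in the cytosol, fell in every injection. It had 17.4 cRPKM after Snrpb, 18.7 after Snrpd2, 14.6 after both and 16.3 after mCherry in 2-cell embryos, and 74.4, 78.1, 87.1 and 89.4 cRPKM in 1-cell embryos. The groups were far apart, with means of 16.7 ± 1.72 and 82.2 ± 7.15 cRPKM (SD, n = 4 each). The log2 change was −2.56 (SE 0.12, edgeR adjusted p = 6.03e-08), a 5.88-fold fall, and 518 of the 16264 genes had a lower one. Its antioxidant core is the one printed above. Txnrd3, which encodes a reductase best known from testis, fell 5.08-fold, to 6.66 ± 0.572 cRPKM in 2-cell against 28.4 ± 3.56 cRPKM in 1-cell embryos (adjusted p = 1.29e-07). Txnrd1 kept 69.7% to 72.5% of the summed reductase cRPKM in 2-cell libraries and 73.5% to 75.2% in 1-cell libraries. Of all genes tested, 38.1% rose and 32.0% fell, with a median log2 change of 0.15. Of the 10 genes in the thioredoxin list, 1 rose, 4 fell and 5 did not pass (median log2 −0.46). The one that rose was Txndc17, a thioredoxin-related protein gene, at 40.0 ± 2.49 cRPKM in 2-cell and 12.6 ± 1.70 cRPKM in 1-cell embryos (adjusted p = 5.99e-06). Within a library, the ratio of Txnip to Txn1 cRPKM was 1.24 to 1.81 at the 2-cell stage and 22.2 to 37.1 at the 1-cell stage. Summing both thioredoxins, the ratio was 0.0871 to 0.105 at the 2-cell stage and 2.44 to 3.53 at the 1-cell stage, so Txnip transcripts outnumbered thioredoxin transcripts per length in 1-cell libraries and not in 2-cell libraries.

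The cytosolic peroxiredoxins Prdx1 and Prdx2, both of which are reduced by thioredoxin, moved in opposite directions. Prdx2 (ENSMUSG00000005161) had 627 cRPKM after Snrpb, 758 after Snrpd2, 641 after both and 721 after mCherry in 2-cell embryos, and 451, 393, 413 and 456 cRPKM in 1-cell embryos. It was the most abundant of the 10 genes in 7 of the 8 libraries, after Txnip in the 1-cell Snrpd2 library. Its means were 687 ± 63.1 and 428 ± 30.7 cRPKM (SD, n = 4 each), with no overlap. The rise was small, 1.34-fold (log2 0.42, SE 0.11, edgeR adjusted p = 0.00756), and was not called without the 2-cell or without the 1-cell library given both mRNAs (adjusted p = 0.052 and 0.0754). Prdx2 overlaps Junb and Rnaseh2a on the opposite strand, so part of its reads cannot be told apart from theirs. Prdx1 (ENSMUSG00000028691) had 87.4, 100.4, 89.9 and 106 cRPKM in 2-cell embryos, in the same order, and 232, 222, 227 and 255 cRPKM in 1-cell embryos. Its levels at the stages did not approach each other, with means of 95.8 ± 8.60 and 234 ± 14.6 cRPKM. Prdx1 fell 2.93-fold (log2 −1.55, SE 0.11, adjusted p = 7.14e-07). The ratio of Prdx2 to Prdx1 within a library was therefore 6.83 to 7.55 in 2-cell and 1.77 to 1.95 in 1-cell embryos.

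Over all genes tested, 38.1% were higher and 32.0% lower in 2-cell embryos, with a median log2 change of 0.15. The wider peroxiredoxin list, which includes the sestrins and sulfiredoxin, had 8 of 10 genes higher and 2 lower, with a median of 1.74. The largest rises were those of Prdx4, the peroxiredoxin of the endoplasmic reticulum, and Sesn2, a stress-induced sestrin. Prdx4 had 31.6 ± 3.64 cRPKM in 2-cell and 1.07 ± 0.395 cRPKM in 1-cell embryos (SD, n = 4 each, 25.2-fold, edgeR adjusted p = 1.00e-07). Sesn2 had 54.8 ± 6.82 and 2.41 ± 0.357 cRPKM (19.0-fold, adjusted p = 1.54e-08). The mitochondrial Prdx3 fell 3.34-fold, to 2.41 ± 0.389 cRPKM against 6.74 ± 1.27 cRPKM (adjusted p = 1.88e-05). Even so, Prdx2 alone made up 78.1% to 79.5% of summed peroxiredoxin cRPKM in 2-cell libraries and 61.5% to 63.8% in 1-cell libraries, and Prdx1 10.4% to 11.5% and 32.8% to 34.8%.

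Both glutathione peroxidases among the 10 rose. Gpx1 (ENSMUSG00000063856), the general cytosolic selenoenzyme, had 117 cRPKM after Snrpb, 214 after Snrpd2, 141 after both and 151 after mCherry in 2-cell embryos, against 14.2, 11.2, 10.5 and 8.61 cRPKM in 1-cell embryos. Within each stage its spread was wide, but the lowest 2-cell value was still well above the highest 1-cell value. The means were 156 ± 41.6 and 11.1 ± 2.33 cRPKM (SD, n = 4 each), and the log2 change was 3.53 (SE 0.21, edgeR adjusted p = 2.43e-07), 11.6-fold on TMM-scaled counts and 14.0-fold on mean cRPKM. The rise differed in size between injections, 6.63-fold (95% counting interval 6.11 to 7.2) after Snrpb, 11.6-fold (10.5 to 12.9) after both, and 15.3-fold after Snrpd2 (14.0 to 16.8) and after mCherry (13.8 to 17.0). With 1 library each, these describe the libraries. Gpx4 (ENSMUSG00000075706), which reduces lipid peroxides in membranes and guards against ferroptosis, had 15.0, 26.0, 19.7 and 18.8 cRPKM in 2-cell embryos, in the same order, and 6.61, 4.63, 6.33 and 8.30 cRPKM in 1-cell embryos. The groups did not overlap, and Gpx4 rose 2.56-fold (log2 1.36, SE 0.22, adjusted p = 2.77e-04). It was the lowest of the 10 genes in every 1-cell library. The ratio of Gpx1 to Gpx4 was 7.19 to 8.25 in 2-cell and 1.04 to 2.42 in 1-cell libraries.

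Across the glutathione peroxidase family, 5 of the 7 genes tested rose, 1 fell and 1 did not pass (median log2 1.36). The background for this and the next list was 38.1% higher and 32.0% lower over all genes tested. Summed over the 8 glutathione peroxidase genes, cRPKM was 240 to 372 in 2-cell libraries and 87.2 to 91.9 in 1-cell libraries. Gpx1 supplied 48.5% to 57.6% of it in 2-cell libraries and 9.84% to 15.8% in 1-cell libraries. Gpx6, the one that fell, supplied 8.21% to 9.61% and 40.0% to 49.8%, with 25.5 ± 4.04 cRPKM in 2-cell and 39.3 ± 3.24 cRPKM in 1-cell embryos (SD, n = 4 each, edgeR adjusted p = 7.55e-05). Gpx2, known from the gut lining, had the largest fold, from very few reads. It had 537 reads over the 2-cell libraries against 7 over the 1-cell libraries, a ratio of 83.9 (95% counting interval 40.4 to 210), and reached 3.12 ± 1.18 cRPKM in 2-cell embryos. Genes for selenocysteine synthesis and insertion divided, with 3 of 6 higher and 3 lower. Sephs2, which makes the selenium donor and is itself a selenoprotein gene, had 365 ± 11 cRPKM in 2-cell and 101 ± 24.3 cRPKM in 1-cell embryos (adjusted p = 9.82e-06), and Trnau1ap, a partner of the selenocysteine tRNA, rose 1.87-fold. Sepsecs, the last enzyme of selenocysteine synthesis, had 2.30 ± 0.241 and 12.5 ± 2.39 cRPKM (adjusted p = 3.40e-07), and Eefsec, the elongation factor for selenocysteine, fell 3.06-fold. The selenoprotein genes Gpx1, Gpx4 and Txnrd1 moved in different directions themselves.

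**Figure D2:**
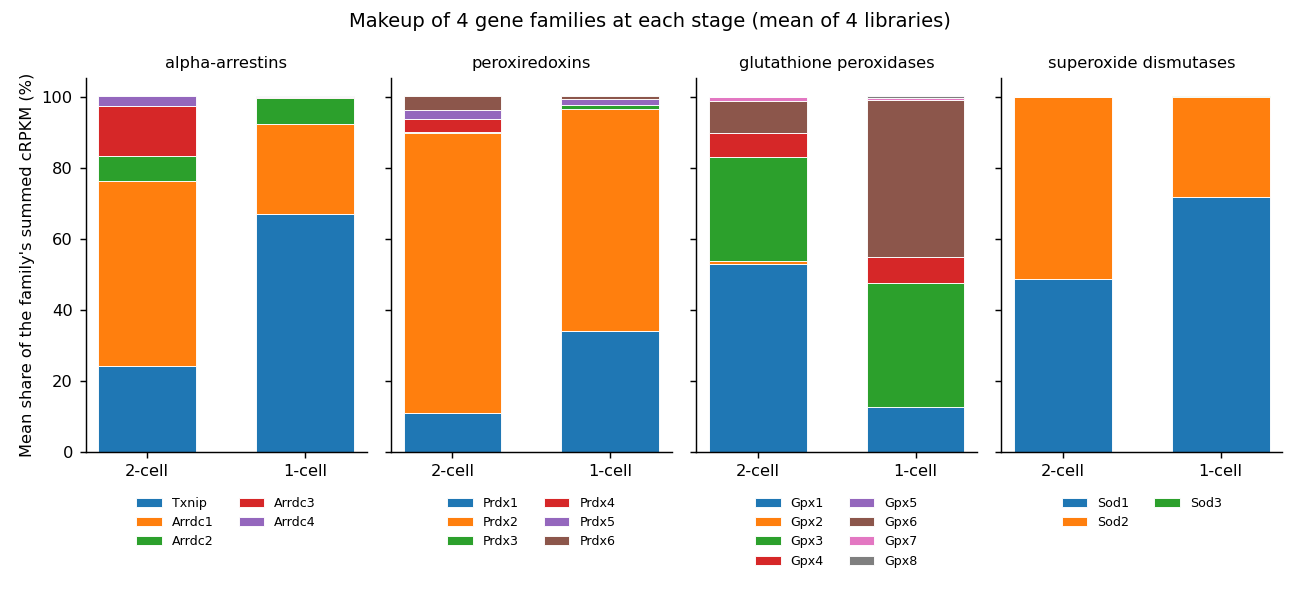
Mean share of each gene in the summed cRPKM of its family's listed genes, in percent, as the mean of the 4 libraries of a stage. The 2-cell bars are left of the 1-cell bars. Txnip falls to 24.2% of the alpha-arrestin sum at the 2-cell stage against 66.8% at the 1-cell stage, Gpx1 stands at 52.7% of the glutathione peroxidase sum against 12.5%, and Sod1 at 48.5% of the superoxide dismutase sum against 71.6%.

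The superoxide dismutases came to near equal levels at the 2-cell stage. Sod1 (ENSMUSG00000022982), the copper-zinc enzyme of the cytosol, had 18.4 cRPKM after Snrpb, 19.7 after Snrpd2, 15.4 after both and 17.9 after mCherry in 2-cell embryos, and 30.2, 33.0, 33.6 and 45.2 cRPKM in 1-cell embryos. The stages did not overlap, and the 1-cell mCherry library was the highest of all. Sod1 fell 2.36-fold (log2 −1.24, SE 0.15, edgeR adjusted p = 3.10e-05), with means of 17.8 ± 1.80 and 35.5 ± 6.62 cRPKM (SD, n = 4 each). Sod2 (ENSMUSG00000006818), the manganese enzyme of the mitochondrial matrix, had 19.0, 19.5, 17.3 and 19.7 cRPKM in 2-cell embryos, in the same order, against 14.3, 13.6, 14.4 and 12.9 cRPKM in 1-cell embryos. These values were the tightest of the 10 genes, with coefficients of variation of 5.84% and 5.02%, and the stages did not overlap in cRPKM. On TMM-scaled counts the change was 0.19 on the log2 scale (SE 0.12, adjusted p = 0.168), and with library totals Sod2 was called higher (log2 0.45). Stretches of at least 100 bases of Sod2 match transcripts of 23 other genes at 95% identity or more, 15 of them in the tables, so part of its reads could be shared with them. Such matches were fewer but present for Prdx2 (3 other genes), Prdx1 (2), Gpx4 (2), Txn1 (1), Sod1 (1) and Txnip (1). Reads of these genes could be shared or lost as well. Txn2, Txnrd1 and Gpx1 had 0. The ratio of Sod2 to Sod1 was 0.99 to 1.12 in 2-cell and 0.286 to 0.475 in 1-cell libraries. Cat encodes catalase, which breaks down the hydrogen peroxide that both dismutases produce. It rose 2.66-fold from a low level, to 1.71 ± 0.392 cRPKM in 2-cell against 0.555 ± 0.241 cRPKM in 1-cell embryos (adjusted p = 0.00146).

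Set among all 12 redox lists, which hold 90 genes, the 10 were not set apart by direction. Of the 88 listed genes tested, 31 rose, 33 fell and 24 did not pass, with a median log2 change of −0.11. The shares of 35.2% higher and 37.5% lower lay near the 38.1% and 32.0% of all genes tested, which are also the background for the counts of each list. Without the 10, 28 rose, 28 fell and 22 did not pass. Glutathione synthesis and recycling had 1 of 11 genes higher and 6 lower. Glrx, a glutaredoxin gene, fell to 29.2 ± 4.35 cRPKM in 2-cell against 142 ± 27.8 cRPKM in 1-cell embryos (SD, n = 4 each, edgeR adjusted p = 6.33e-08), Chac2, of glutathione breakdown, fell 3.37-fold, and Gss, glutathione synthetase, rose 2.18-fold. NADPH supply likewise had 1 of 8 higher and 4 lower, with Me1, malic enzyme, at 194 ± 17.6 and 436 ± 28.9 cRPKM (adjusted p = 1.07e-06), the cytosolic Idh1 3.03-fold lower, and Nnt, a mitochondrial transhydrogenase gene, 3.95-fold higher at 0.427 ± 0.120 against 0.102 ± 0.068 cRPKM. Glutathione transferases split into 4 higher and 4 lower of 11 tested. Gstm1 rose 20-fold and Gsto1 16.7-fold, while Gsta4 fell 2.87-fold and Mgst3 fell 2.54-fold. Of the 4 methionine sulfoxide reductases, the selenoprotein gene Msrb1 rose 2.81-fold, and Msra fell 2.06-fold and Msrb3 1.90-fold.

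The NRF2 list held both regulators and targets of the factor that reads the antioxidant response element. Of its 8 genes, 3 rose and 1 fell, near the 38.1% higher and 32.0% lower of all genes tested for the rises and below it for the falls. Mafk, a small MAF partner of NRF2, had 17.7 ± 2.94 cRPKM in 2-cell and 1.22 ± 0.367 cRPKM in 1-cell embryos (SD, n = 4 each, edgeR adjusted p = 3.24e-08). Hmox1, haem oxygenase and a classic target, had 22.4 ± 3.58 and 2.50 ± 0.347 cRPKM (adjusted p = 1.51e-07). Keap1, which marks NRF2 for degradation, fell to 2.52 ± 0.474 against 4.27 ± 0.647 cRPKM (adjusted p = 5.23e-04). Nfe2l2, the gene of NRF2 itself and named after its values were seen, rose 1.76-fold, to 24.0 ± 1.87 against 11.4 ± 1.22 cRPKM (adjusted p = 2.77e-04). Txnrd1 and Prdx1, textbook NRF2 targets with the core in their windows, fell in the same libraries, and Nqo1, another such target and also named after its values were seen, had 11.2 ± 1.11 and 8.87 ± 0.608 cRPKM and did not pass (adjusted p = 0.62). Other targets were not gathered as a set here, and the action of NRF2 was not tested.

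**Figure D3:**
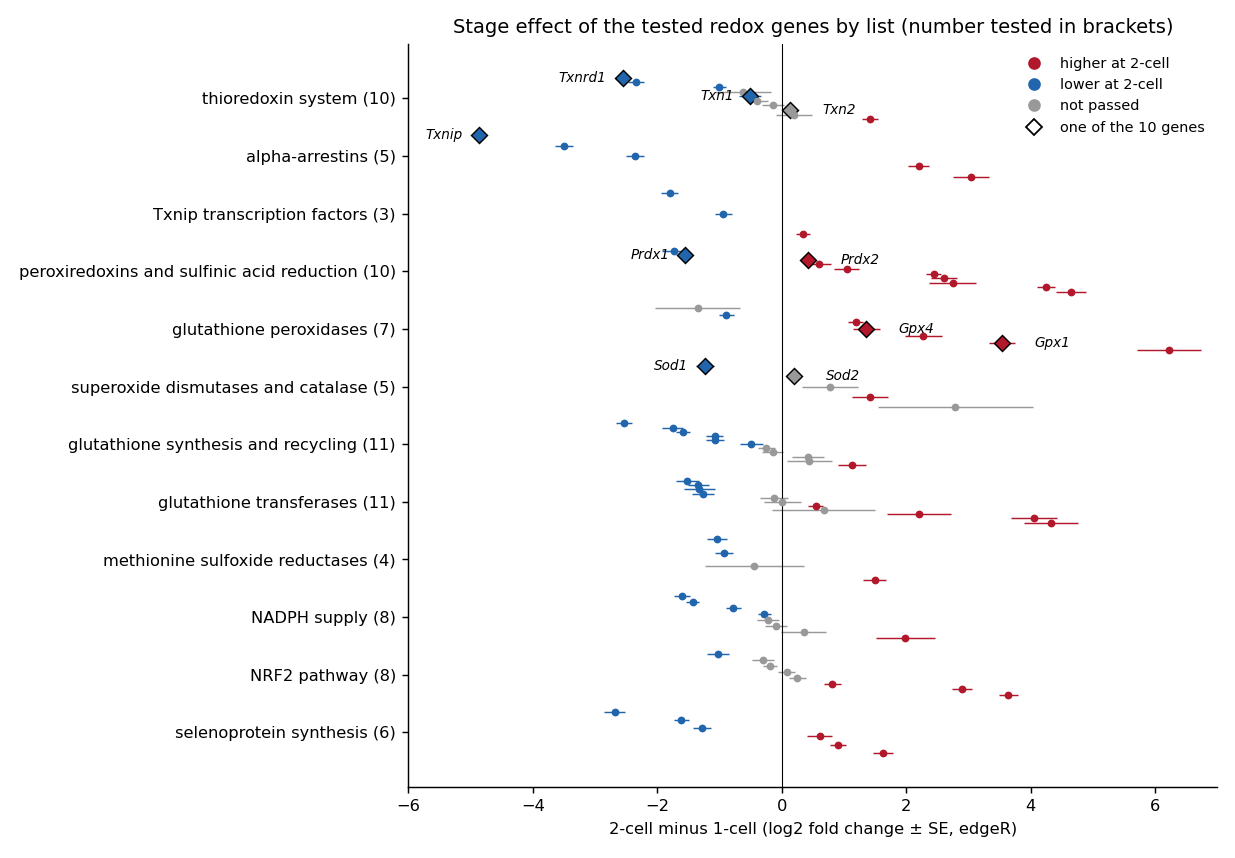
Stage effect of the 88 tested redox genes, as the log2 fold change of 2-cell over 1-cell embryos with its standard error (edgeR), grouped by list from top to bottom; red points were higher and blue points lower at the 2-cell stage at an adjusted p under 0.05, grey points did not pass, and diamonds are the 10 genes. Txnip lies furthest left at −4.87, and Gpx2 furthest right at 6.22, beyond Gpx1 at 3.53.

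The order of the 10 levels within a library shows the same shift, and compares genes per length. At the 2-cell stage Prdx2 was first in all 4 libraries, Prdx1 came after Txn2 and Gpx1, which changed places, and Txn1 was last. In the places between, Sod2, Sod1, Gpx4, Txnrd1 and Txnip lay within 14.4 to 26.0 cRPKM, and their order differed between the libraries. At the 1-cell stage Prdx2 and Txnip led, followed in every library by Prdx1, Txn2, Txnrd1 and Sod1. Sod2, Txn1 and Gpx1 came next in changing order, and Gpx4 was last. Genes that changed places had overlapping ranges over the injections. The 10 genes together summed to 1060 to 1371 cRPKM in 2-cell and 1288 to 1401 cRPKM in 1-cell libraries, of which Prdx2 made up 55.3% to 59.1% and 30.5% to 34.3%.

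Injection of Sm mRNA was compared with mCherry at each stage, with the 3 Sm-injected libraries as 1 group and the single mCherry library assumed to vary like them. The injected genes, Snrpb and Snrpd2, were themselves among the genes tested. Their reads took up to 4.88% of a 1-cell Sm-injected library against 0.0% of the 1-cell mCherry library, yet neither was called. Each was given to only some of the 3 Sm-injected libraries and so varied within that group by design. Their result therefore does not show how well a gene that responds alike to all 3 injections would be detected. With a single mCherry library a stage, a gene that is not called here can still not be taken as unchanged. None of the 10 genes was called at the 2-cell stage, at the 1-cell stage or for the difference between the stages (edgeR, adjusted p under 0.05), and neither was any of the 16867 genes tested, so the background was 0.0% in each of these comparisons. At an unadjusted p under 0.05 there were 637 genes at the 2-cell stage, 2618 at the 1-cell stage and 1648 for the difference, and DESeq2 called 0, 534 and 31. At the 2-cell stage the log2 effects of the 10 genes lay between −0.23 (SE 0.13) for Prdx1 and 0.07 (SE 0.15) for Txnip, each with an edgeR adjusted p of 1.0. They ran wider at the 1-cell stage, between −0.54 (SE 0.27) for Txn1 and 0.52 (SE 0.31) for Gpx1. Sod1 had the smallest adjusted p there, 0.285, at a log2 effect of −0.45 (SE 0.19), with all 3 Sm-injected libraries below mCherry. For the difference between stages, the effects ran between −0.51 (SE 0.41) for Gpx1 and 0.54 (SE 0.39) for Txn1, and the smallest adjusted p was 0.658, again for Sod1.

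Single libraries were then set against the mCherry library of their stage, which all 3 ratios of a stage share. None of the 10 genes passed a 2-fold difference with its whole 95% counting interval on one side of 1. The share of all genes that did was 4.37% for Snrpb, 4.31% for Snrpd2 and 3.51% for both at the 2-cell stage, and 4.66%, 5.16% and 4.16% at the 1-cell stage. Txnip, the gene with the largest stage change, was among the steadiest, with ratios between 0.949 and 1.14 over all 6 pairs, and Txnrd1 lay between 0.878 and 1.08. Gpx1 and Gpx4 had the widest ranges over the 6 pairs, 0.765 to 1.76 and 0.571 to 1.3. At the 1-cell stage the Gpx1 ratio to mCherry was 1.76 (1.55 to 2.00) for Snrpb, 1.34 (1.17 to 1.53) for Snrpd2 and 1.2 (1.04 to 1.38) for both, whereas at the 2-cell stage it was 0.765 for Snrpb, 1.34 for Snrpd2 and 0.913 for both. Sod1 ratios at the 1-cell stage were 0.713, 0.750 and 0.731, in the same order of injections, and those of Txn1 were 0.636, 0.682 and 0.750. All 6 lay below 1, and the Sod1 ratios hardly differed from each other. Gpx4 ratios at the 1-cell stage were 0.850, 0.571 and 0.748.

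**Figure D4:**
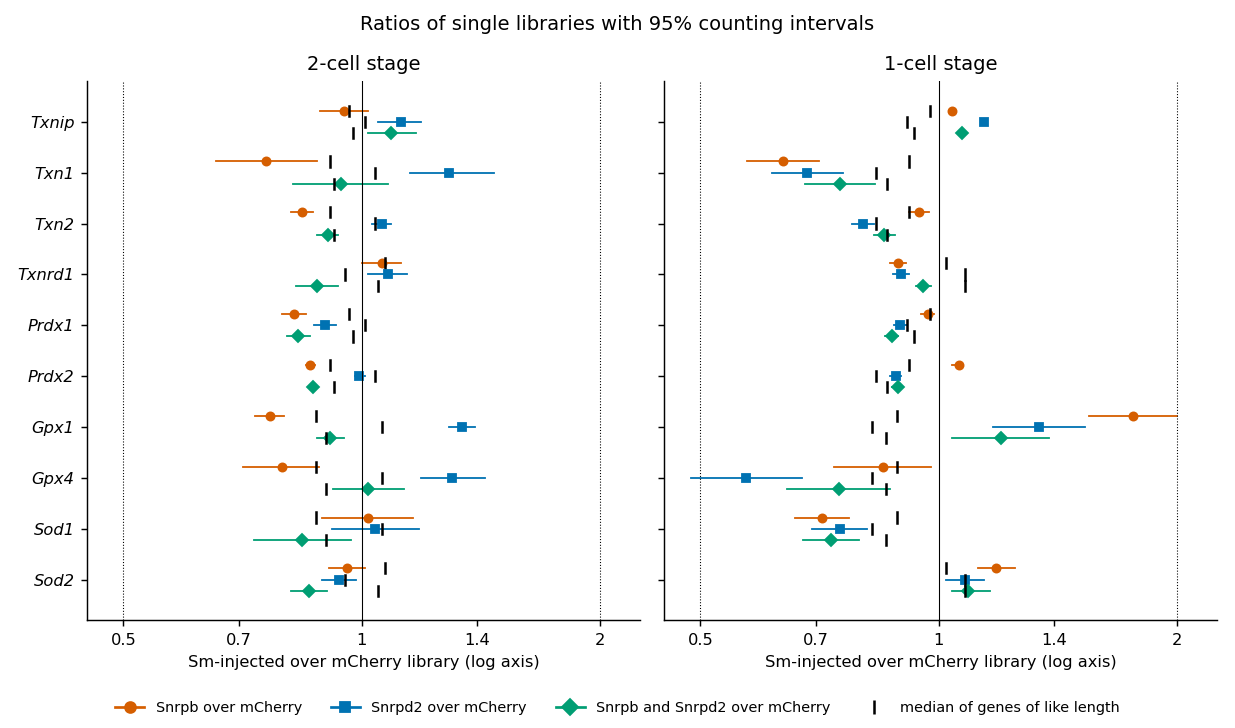
Ratio of each Sm-injected library to the mCherry library of its stage for the 10 genes (log axis, TMM-scaled counts), with 95% intervals that cover counting error only; 2-cell ratios are left and 1-cell ratios right, dotted lines mark a 2-fold difference, and black ticks give the median ratio of all genes in the same length class. Txnip stays between 0.949 and 1.14, and Gpx1 after Snrpb stands at 0.765 at the 2-cell stage and 1.76 at the 1-cell stage.

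Txn1, Gpx1 and Gpx4 varied most within both stages, with coefficients of variation of 22.8% to 26.7% at the 2-cell and 21.0% to 23.3% at the 1-cell stage, and Sod1 stood at 10.1% and 18.7%. By the length implied by the ratio of counts to cRPKM, these 4 are the shortest of the 10 genes. Among longer genes at the 2-cell stage, Txn2 (12.1%, 1249 bases) and Txnrd1 (10.2%) had values no lower than that of Sod1. The implied length was 597 bases for Sod1, 798 for Gpx1, 946 for Gpx4 and 1002 for Txn1. It was 2778 for Txnip, 3368 for Txnrd1 and 3680 for Sod2. This length need not be that of the transcript (Gstp1 stood at 133 bases), and it was not compared with annotated lengths. At the 2-cell stage the Snrpd2 library was the highest of the 4 for 7 of the 10 genes and the Snrpb library the lowest for 7, where 29.0% and 26.9% of all genes tested had that library at the same end. Txn1, Gpx1 and Gpx4 showed this in step, at 1.29, 1.34 and 1.30 times mCherry after Snrpd2 and at 0.758, 0.765 and 0.792 times mCherry after Snrpb. Over all genes with a mean of at least 100 reads, the ratios to mCherry moved with implied length as well. For 961 genes under 1000 bases the median ratio at the 2-cell stage was 1.06 after Snrpd2 and 0.876 after Snrpb, and for 5092 genes of 3000 bases or more it was 0.953 and 1.07. All 3 Sm-injected libraries of the 1-cell stage had short genes below mCherry, with medians under 1000 bases of 0.886 for Snrpb, 0.823 for Snrpd2 and 0.859 for both, and of 1.02, 1.08 and 1.08 at 3000 bases or more. The next longer class, which starts at 1000 bases and holds Txn1, had medians of 0.917, 0.834 and 0.860. Sod1, Txn1 and Gpx4 thus lay below 1 at the 1-cell stage in libraries in which the median of their length class did so too, but also below that median in all 3. Sod1 exceeded 21.2% to 38.2% of its class, Txn1 6% to 21.6% and Gpx4 8.95% to 44.3%. Gpx1 lay above its class median and exceeded 86.1% to 95% of the class. The part of transcript length in the members' ratios was not tested. The mCherry library was the highest of the 4 at the 1-cell stage for 6 of the 10 genes and for 34.6% of all genes tested.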

How the data were processed

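Each of the 8 libraries came as 1 table of 22667 Ensembl genes, of which 1114 held no value in any library. The deposited counts are whole numbers of reads per gene, made by the authors from polyA RNA libraries, per the labels' protocols. The deposited cRPKM is an RPKM value made by the authors, and for 2662 genes with many reads in all libraries it equalled the count divided by a fixed length and the library total within 0.172%. The submitters' processing notes name the build mm9. No source used here gives the aligner, the annotation, the handling of reads with several matches or whether strand was used. Symbols came from GENCODE vM21 by identifier.

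Counts were tested with edgeR 4.0.16 in R 4.3.3 (quasi-likelihood, TMM, filterByExpr, Benjamini-Hochberg over all genes, calls at 0.05). The stage fit had terms for injection and stage (16264 genes, common dispersion 0.043, 3 residual degrees of freedom). The injection fit had 4 groups, stage by Sm-injected or mCherry (16867 genes, dispersion 0.0362, 4 residual degrees of freedom). Standard errors are the log2 change divided by the root of F. Alternatives used DESeq2 1.42.0, limma 3.58.1 on log2(cRPKM + 0.1) or log2(cRPKM + 1), other scalings and filters, and left out each library in turn. The code was tested on simulated counts.

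Ratios of single libraries are TMM-scaled, with a minimum of 50 reads in either of the libraries. Their exact conditional binomial 95% intervals cover counting error only, since without molecular identifiers PCR copies are counted as molecules, and a count of 0 would allow 3 reads. Copies were searched with BLAST 2.17.0+.

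The genes and lists were chosen with earlier results of these data known. Named beside the 10 are the 2 largest rises and falls of each redox list among called genes, and the 5 genes most like Txnip. The length classes and the half-site motif were added after the ratios and the windows were seen. The tables pair no exon junctions with genes, so splicing was not analysed here.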

Additional observations from a re-analysis of the deposited data

Results flagged for a closer look

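In 2 cases a library stood far from the other 3 of its stage by Dixon's criterion for the gap over the range, which was applied to 44 redox genes at both stages, 88 tests in all. Chance flags about 1 in 20 such groups. Both cases are alpha-arrestins and neither is one of the 10 genes. At the 2-cell stage Arrdc4 stood at 1.34 cRPKM after both Sm mRNAs, against 1.87 to 1.91 cRPKM after the other injections. At the 1-cell stage Arrdc3 stood at 2.50 cRPKM after mCherry, against 1.44 to 1.56 cRPKM after the Sm injections, in the library that also had the highest Sod1 and Txn1.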

How the results depend on the processing

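The stage calls of Txnip, Txnrd1, Prdx1, Sod1, Gpx1 and Gpx4 kept their direction and passed the threshold in all 16 alternatives, among them the fit without the 1-cell mCherry library. Leaving out either library of an injection takes that injection out of the stage change. The 8 fits that each left out 1 library therefore come in pairs of near-equal estimates. With library totals and with both limma fits, 5 of the 10 genes were called higher in place of 3, because Txn2 and Sod2 passed. Txn2 ranged between −0.025 and 0.209 (log2) when 1 library was left out, reaching −0.024 without the 2-cell and −0.025 without the 1-cell Snrpd2 library. Both of these fits take the Snrpd2 injection out of the stage change. Its 2-cell over 1-cell ratio of Txn2 was 1.37, against 0.923 after Snrpb, 1.1 after both mRNAs and 1.04 after mCherry. Why the ratio was higher after Snrpd2 was not tested. Genes called for Sm injection at the 1-cell stage were 0 with edgeR, 534 with DESeq2 and 1 with limma on log2(cRPKM + 0.1), and 0 to 3 when 1 library was left out. At the 2-cell stage that limma fit called 2. For the difference between the stages DESeq2 called 31 and that limma fit 1. None of these included one of the 10 genes. With a minimum of 10 reads, genes past 2-fold against mCherry were 1574 (Snrpb), 1525 (Snrpd2) and 1381 (both) at the 2-cell stage and 1441, 1349 and 1280 at the 1-cell stage, again with none of the 10. More genes enter at that minimum. Without a stage's mCherry library its injection effect has no estimate. The stage fit pairs the 2-cell and 1-cell libraries of each injection through its injection term, and without that term 3 of the 10 genes were again called higher and 5 lower. The injection comparisons have no replicate numbers to pair by. Each combination of stage and injection has 1 pooled library, so the spread between replicates of a condition was not measured.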

Other observations

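Several listed redox genes outside the naming rule, picked after their values were seen, also rose or fell at the 2-cell stage. Prdx6, a peroxiredoxin that also acts on phospholipids, had 34.3 ± 3.80 cRPKM in 2-cell and 5.29 ± 0.448 cRPKM in 1-cell embryos (SD, n = 4 each, 5.41-fold, edgeR adjusted p = 9.72e-08). Srxn1, which encodes sulfiredoxin and restores overoxidised peroxiredoxins, had 2.35 ± 0.531 and 0.312 ± 0.174 cRPKM (6.72-fold, adjusted p = 9.09e-05). Gpx3, the secreted glutathione peroxidase of plasma, had 84.4 ± 7.25 and 31.1 ± 3.88 cRPKM and was next after Gpx1 in the family at the 2-cell stage (adjusted p = 8.55e-06). Gclc and Gclm, the subunits of the enzyme that limits glutathione synthesis, each fell 2.11-fold (adjusted p = 6.74e-05 and 5.63e-05), and Slc7a11, the cystine importer, fell 3-fold (adjusted p = 9.46e-07).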
